A study of Homo sapiens with 12 samples.

Results

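Long intergenic noncoding RNAs and RNAs named for the gene they lie against made up 399 of the 10992 genes with an N4-acetylcytidine (ac4C) peak in H1 cells, or 3.63%. They were chosen by name alone from 4 peak lists: symbols that start with LINC, that hold -AS and a digit, or that end in -DT, -IT or -OT. The 399 Ensembl identifiers carried 397 symbols and comprised 65 LINC genes, 268 antisense genes (AS), 64 divergent transcripts (DT), 2 overlapping transcripts (OT) and 0 intronic transcripts (IT). RefSeq held 383 of the symbols and classed 380 as long noncoding RNA, 2 as antisense RNA (GNAS-AS1 and TRAF3IP2-AS1) and 1 as a transcribed pseudogene (TP73-AS1).

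The lists come from ac4C-RIP-seq, in which fragments of about 200 nt are captured with an antibody to ac4C and sequenced. The labels name the molecule as polyadenylated RNA and also describe removing ribosomal RNA from total RNA, so whether RNAs without a poly(A) tail could give peaks is not known. The cell line was H1, an established line of human embryonic stem cells. Knockdown (KD) cells had been transduced with a lentivirus that carried a short hairpin RNA against NAT10 and GFP, held for 48 hours, then enriched for GFP and expanded with 0.5 ug per ml puromycin. Wild-type (WT) cells were H1 cells for which the labels name no control hairpin, so transduction and selection cannot be told apart from the knockdown. There were 2 immunoprecipitation libraries per genotype, each with its own list, and since input and IgG libraries are not used here, more ac4C on an RNA and more of that RNA cannot be told apart. The KD lists held 27787 and 36476 peaks and the WT lists 37988 and 38150. NAT10 itself had 0 and 0 peaks in the KD lists against 7 and 9 in the WT lists. Of 12 embryonic stem cell markers, 9 and 11 had a peak in KD cells and 12 and 11 in WT cells, but their summed peaks, 60 and 66 in KD cells against 102 and 97 in WT cells, separated the genotypes. The markers differed among themselves. DNMT3B, a DNA methyltransferase gene of that list, had 0 and 0 peaks in KD cells and 14 and 10 in WT cells. LIN28A had 2 and 2 in KD cells and 9 and 9 in WT cells. In contrast, SOX2 had 5 and 8 in KD cells and 6 and 4 in WT cells, and NANOG 6 and 5 against 5 and 4. TDGF1 went the other way, with 5 and 8 in KD cells and 4 and 0 in WT cells. None of the 9 mesoderm, endoderm and trophectoderm markers had a peak in any list, 1 of 3 ectoderm markers (NES) had peaks in every list, and so did all 3 fibroblast markers, with 15 and 24 peaks in KD cells and 25 and 17 in WT cells. The part of these markers in the results was not tested.

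NAT10 is the RNA acetyltransferase that writes ac4C. Antisense RNAs are transcribed from the strand opposite a gene, and divergent transcripts start near a gene's promoter and run away from it, so both often share sequence or a start region with that gene, called the partner here. Many of these RNAs are spliced and polyadenylated like messenger RNAs but are less abundant, and several act in the nucleus or bind microRNAs or proteins.

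The sequences at annotated start sites show how a peak lay on a member. RefSeq promoter windows (build GRCh38.p14) were cut to the 50 bases before a start and the 50 bases from it on. In 14 such windows of 13 members a peak of the member itself covered bases after the start in at least 2 lists. Of these windows, 8 were covered in both KD lists alone, 1 in both WT lists alone and 5 in other combinations. Windows of other genes were not split in this way, so these counts have no background to be read against. The 6 member windows printed here were picked after their values were seen. They were chosen to cover windows under a peak in KD lists alone, in WT lists alone and in both genotypes. Capitals mark the bases under a peak in every list that had one there.
FARSA-AS1, chr19:12930472-12930571, plus strand, both KD lists: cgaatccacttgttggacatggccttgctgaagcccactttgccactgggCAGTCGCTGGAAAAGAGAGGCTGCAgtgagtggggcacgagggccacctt
TIRAP-AS1, chr11:126304273-126304372, minus strand, both KD lists: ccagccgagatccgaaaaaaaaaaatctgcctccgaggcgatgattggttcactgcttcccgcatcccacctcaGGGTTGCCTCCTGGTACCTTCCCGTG
MDC1-AS1, chr6:30703017-30703116, plus strand, both KD lists: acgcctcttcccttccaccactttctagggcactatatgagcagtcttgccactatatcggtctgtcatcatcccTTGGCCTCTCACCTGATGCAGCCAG
LINC00623, chr1:120913167-120913266, plus strand, both KD lists: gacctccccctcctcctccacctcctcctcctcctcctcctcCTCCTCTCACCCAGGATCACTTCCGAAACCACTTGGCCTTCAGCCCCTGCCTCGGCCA
LINC00632, chrX:140783131-140783230, plus strand, both KD lists and WT replicate 2: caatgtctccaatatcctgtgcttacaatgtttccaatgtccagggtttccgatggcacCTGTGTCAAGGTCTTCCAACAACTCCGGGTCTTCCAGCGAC
FGD5-AS1, chr3:14947844-14947943, minus strand, both WT lists: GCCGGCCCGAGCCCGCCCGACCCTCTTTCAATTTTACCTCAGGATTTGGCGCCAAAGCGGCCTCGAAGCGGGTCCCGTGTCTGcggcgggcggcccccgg

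The FARSA-AS1 peak was 25 nt long and began at the annotated start in both KD lists. Cytidine made up a lower share of its capitals than of the others, at 46.6% of those of LINC00623, 37.3% of those of FGD5-AS1, 36.0% of those of MDC1-AS1, 34.6% of those of TIRAP-AS1 and 34.1% of those of LINC00632. The FGD5-AS1 peak also covered all of the printed bases before the start. FGD5-AS1 as a gene had 3 and 0 peaks in KD cells and 10 and 8 in WT cells. The WT lists alone thus held this window, but not all of the gene's peaks. The repeated-CNN motif CNNCNNCNNCNN, which has been described around ac4C sites, lay in the capitals of LINC00623 and LINC00632 on the transcribed strand, and in those of the other 4 on neither strand. Over the first 50 nt from the start, the motif was present on the transcribed strand in 27.5% of the 40 member windows with a member peak there in any list and in 25.7% of all 35116 RefSeq windows. On the other strand the shares were 32.5% and 34.8%. The 2440 windows of other genes with a peak of the gene there held it in 29.6% of cases on the transcribed strand and 51.6% on the other, and all 4066 member windows, with or without a peak, in 21.4 and 25.7%. These shares were not tested against each other. A match describes letters only, and overlapping matches were counted once per window.

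Member peaks numbered 400 and 588 in the KD lists, against 519 and 483 in the WT lists. The genotypes overlapped, since the KD lists held both the fewest and the most. As a share of each list they came to 1.44 and 1.61% in KD cells and 1.37 and 1.27% in WT cells, so both KD shares lay above both WT shares, by 0.21 percentage points on average. The two-sided exact permutation test of that difference gave p = 0.333, the smallest that 2 against 2 libraries allow, so no value per list can pass 0.05 here. Member genes with a peak numbered 161 and 209 in KD cells and 153 and 178 in WT cells (exact permutation p = 0.667).

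**Figure D1:**
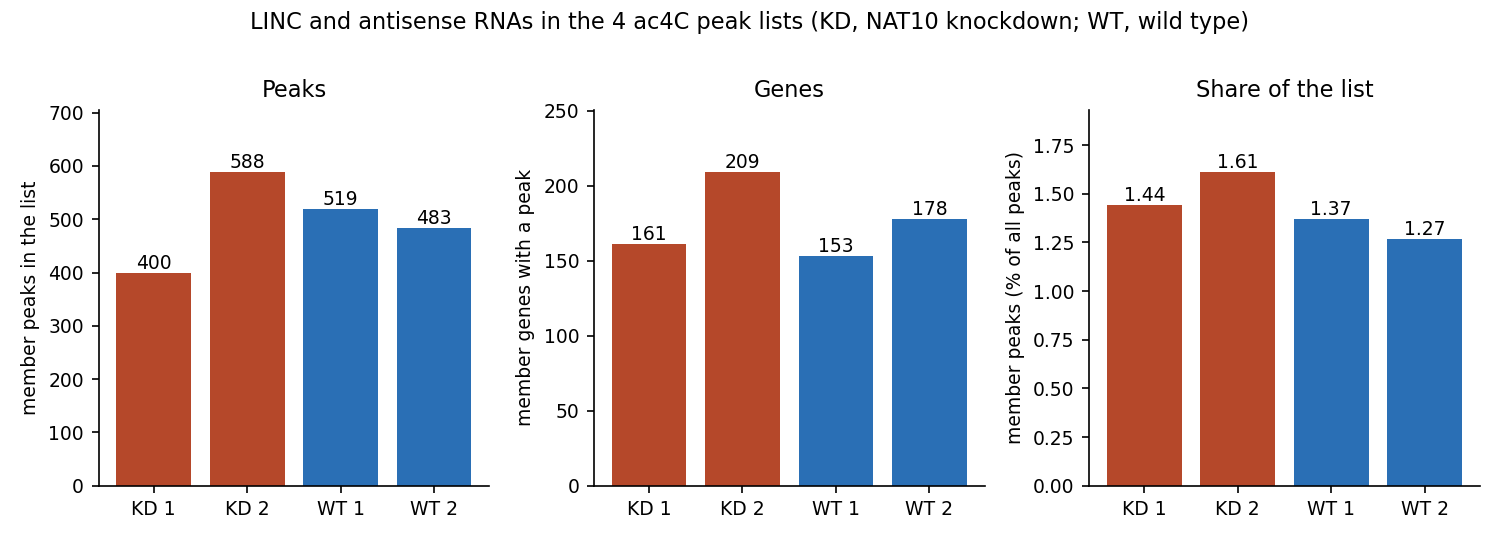
Member peaks, member genes with a peak, and member peaks as a percentage of all peaks, with 1 bar per list (KD, NAT10 knockdown, red; WT, wild type, blue). The peak and gene counts of the genotypes overlap, and the share of the list is 1.44 and 1.61% in the KD lists against 1.37 and 1.27% in the WT lists.

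Antisense genes held most of the member peaks, with 275 and 403 in KD cells and 345 and 359 in WT cells. LINC genes had 80 and 103 peaks in KD cells and 93 and 71 in WT cells, and divergent transcripts had 44 and 82 in KD cells and 81 and 51 in WT cells. In none of these 3 kinds did the genotypes separate. The overlapping transcripts had 1 peak in KD replicate 1 and 2 peaks in WT replicate 2.

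Member genes carried fewer peaks than other genes of the same list, and fewer of them were long. Peaks per gene with a peak came to 2.48 and 2.81 for members in KD cells and 3.39 and 2.71 in WT cells, while other genes had 4.05 and 4.68 in KD cells and 5.53 and 5.24 in WT cells. Members with a single peak were 26.7 and 18.2% of member genes in KD cells and 11.1 and 20.8% in WT cells, against 6.8 and 3.98% of other genes in KD cells and 3.03 and 5.22% in WT cells. The median member peak was 75 nt wide in both KD lists and 100 nt in both WT lists, and the median of other peaks was 125 and 125 nt in KD cells and 125 and 150 nt in WT cells. The member medians of KD and WT lists differed by -25 nt (exact permutation p = 0.333), and by 0 nt among peaks of at most 1000 nt. Peaks spanning over 1000 nt, which can reach across introns, made up 16.2 and 15.0% of member peaks in KD cells and 11.6 and 14.3% in WT cells. Among other peaks these shares were 25.4 and 25.0% in KD cells and 23.0 and 24.2% in WT cells.

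All 4 libraries showed these differences in the same direction. The members minus the others averaged -2.02 ± 0.41 peaks per gene, 14.4 ± 4.89 percentage points of single-peak genes, -43.8 ± 12.5 nt of median width and -10.2 ± 0.935 percentage points of long spans (SD, n = 4). Among peaks of at most 1000 nt the width difference was only -6.25 ± 12.5 nt (SD, n = 4; exact sign-flip permutation p = 1). Each of the 4 main differences gave a two-sided exact sign-flip permutation p of 0.125, the smallest that 4 libraries allow, and 0.15 after Benjamini-Hochberg adjustment over 6 such measures. The authors' score, whose meaning is not stated, was taken as a percentile of the list. Its median was 53.1 and 48.3 for members in KD cells and 49.1 and 49.4 in WT cells, against 50 for other peaks in every list. Members minus others averaged -0.0437 ± 2.18 percentiles (SD, n = 4; exact sign-flip permutation p = 1, adjusted p = 1). Without the member peaks overlapped by a peak on the opposite strand, an alternative added after the data were seen, the difference was -6.96 ± 3.15 percentiles and below 0 in all 4 libraries (exact sign-flip permutation p = 0.125).

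The opposite strand was often marked at the same place in antisense and divergent members, and seldom in LINC genes. A member peak was overlapped by at least 1 bp of another gene's peak on the opposite strand, in the same list, in 33.5 and 35.2% of cases in KD cells and 34.7 and 40.4% in WT cells. By kind the shares were 43.6 and 44.9% of antisense peaks in KD cells and 43.5 and 47.1% in WT cells, and 29.5 and 29.3% of divergent-transcript peaks in KD cells and 30.9 and 43.1% in WT cells. For LINC genes they were 1 of 80 and 2 of 103 peaks in KD cells (1.25 and 1.94%) and 5 of 93 and 4 of 71 in WT cells (5.38 and 5.63%). For all peaks outside the naming rule the shares were 3.4 and 4.18% in KD cells and 3.46 and 3.34% in WT cells. The gap over all members averaged 32.3 ± 3.16 percentage points (SD, n = 4; exact sign-flip permutation p = 0.125, adjusted p = 0.15). Antisense and divergent names are given to RNAs that lie against another gene, so the naming rule itself favours such a gap. The test is therefore no separate support for it. The overlapping peak belonged to the member's own partner for 98 of 134 and 140 of 207 such peaks in KD cells and for 105 of 180 and 135 of 195 in WT cells. The library kit was directional, per the labels, and whether strand was used when peaks were called is not given in the sources used here, so whether both strands carried ac4C was not tested.

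**Figure D2:**
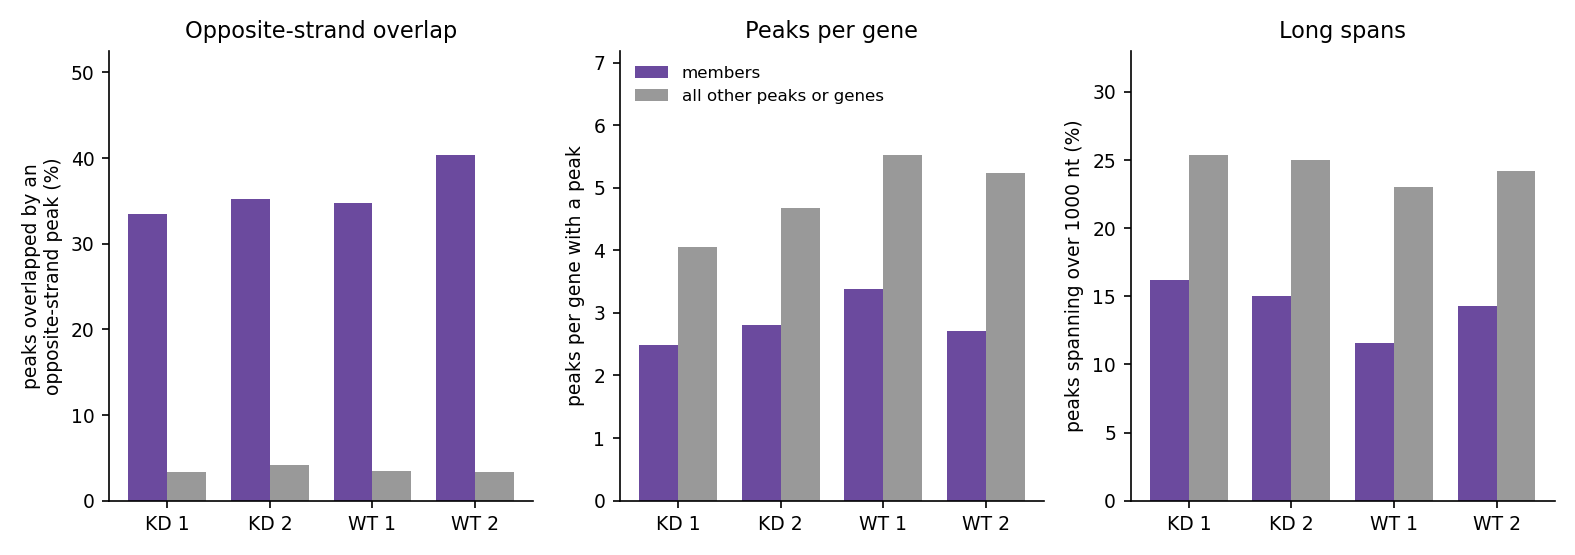
Members (purple) and all other peaks or genes (grey) in each list, KD before WT: the percentage of peaks overlapped by an opposite-strand peak, the number of peaks per gene with a peak, and the percentage of peaks spanning over 1000 nt. In every list members were higher in the first measure and lower in the other 2.

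A lost gene had peaks in both WT lists and in no KD list, a gained gene had them in both KD lists and in no WT list, and a kept gene had them in all 4. Of the 86 members with a peak in both WT lists, 28 were lost, or 32.6%, and the same call took 12.8% of all genes. Of the 95 members with a peak in both KD lists, 36 were gained, or 37.9%, against 17.1% of all genes. Only 35 of the 399 members were kept, or 8.77%, against 32.3% of all genes. A peak in a single list was the commonest state, at 214 members or 53.6%, while 22.1% of all genes were in a single list. These differences in share were not tested, and members also differed from other genes in how many peaks they had.

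Members shared fewer genes between lists of the same genotype. The KD lists shared 95 member genes, which is 59.0% of those of replicate 1 and 45.5% of those of replicate 2, and over all genes the shares were 81.0 and 71.3%. Both WT lists held 86, or 56.2 and 48.3%, with 81.0 and 76.1% over all genes. Lost and gained shares were thus both above the background, and the lists of a genotype also repeated each other less for members.

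**Figure D3:**
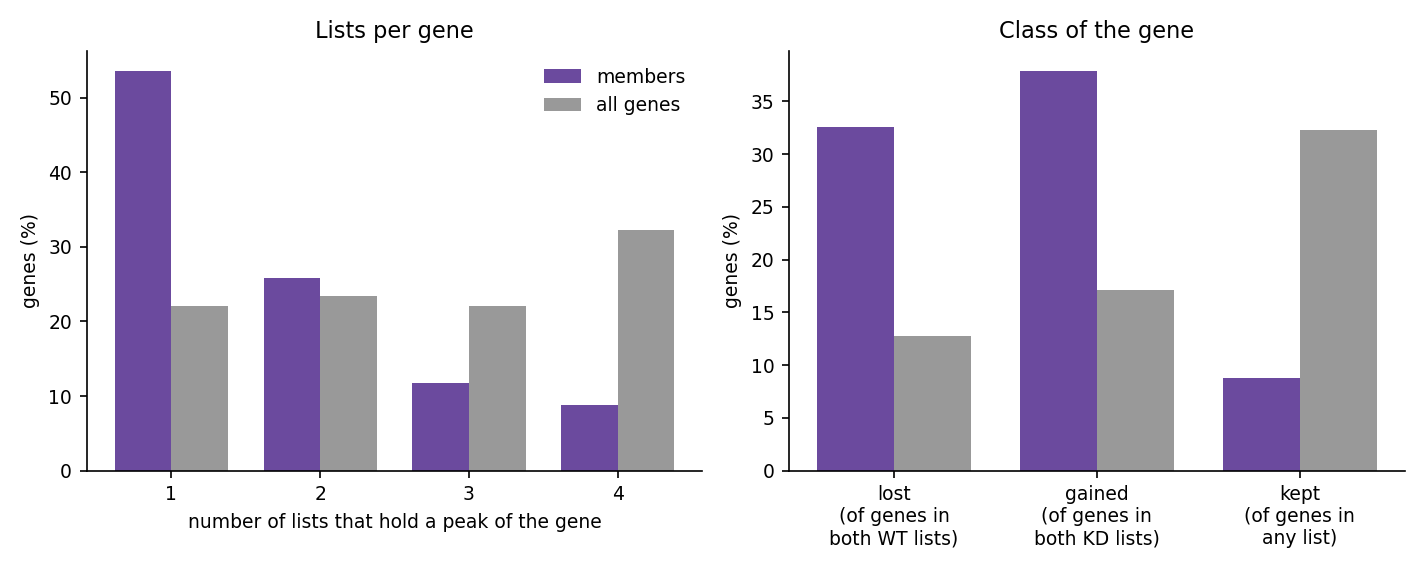
Left, the percentage of members (purple) and of all genes (grey) with a peak in 1, 2, 3 or 4 lists. Right, the percentage lost, gained and kept, each of the genes that could be called so. Members sat at 53.6% in a single list and 8.77% kept, against 22.1 and 32.3% of all genes.

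How few peaks a member had went along with these calls. Among genes with at most 2 peaks in each list of the genotype that holds them, 17 of 26 members (65.4%) and 137 of 422 other genes (32.5%) were lost, and 20 of 33 members (60.6%) and 179 of 592 others (30.2%) were gained. No symbol with a lone peak in a list had a score under 20 in any of the 4 lists, although 78.0 and 84.0% of all peaks in KD cells and 86.1 and 75.8% in WT cells scored below that. A weak lone peak is therefore not seen in these lists, and the setting behind that is not stated. With peaks of score 20 and over alone, an alternative added after the data were seen, 15 of 34 members were lost (44.1%, against 30.8% of all genes), 32 of 45 were gained (71.1%, against 34.8%) and 9 of 226 were kept (3.98%, against 9.86%). Without the member peaks that overlapped a peak on the opposite strand, 16 members were lost, 21 gained and 17 kept. These are counts alone: shares were not computed for that setting, so they cannot be set against the background.

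Peak numbers run on through the gene identifiers of a list, and some numbers are carried by no listed peak. For 26 of the 28 lost members (92.9%), both KD lists had such unlisted numbers where the gene would stand, against 63.1% of 691 other lost genes. For 32 of the 36 gained members (88.9%) both WT lists had them, against 53.1% of 924 other gained genes. An unlisted number can belong to a neighbour in that order. Whether a place has any also depends on how far apart the listed genes stand there. Members and other genes were not matched for this, so the gap between their shares cannot be read as a trait of members. KTN1-AS1 was the lost member, and LINC00467 the gained member, with no unlisted number in either list.

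By kind, 7 of 18 LINC genes, 16 of 58 antisense genes and 5 of 10 divergent transcripts were lost. The gained calls took 4 of 14 LINC genes, 30 of 71 antisense genes and 2 of 10 divergent transcripts. Kept genes were 6 of 65 LINC, 26 of 268 antisense and 3 of 64 divergent. The kinds were not tested against each other.

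Among lost members, MYL12-AS1 ranked first by the lower score percentile of its best peak. It had 0 and 0 peaks in KD cells and 1 and 1 in WT cells, a 75-nt peak at chr18:3255736-3255810 on the minus strand that stood at the 99.9 and 99.5 percentile of the WT lists. An opposite-strand peak overlapped it in both. PDK1-AS1, antisense to the pyruvate dehydrogenase kinase gene PDK1, had 0 and 0 peaks in KD cells and 4 and 3 in WT cells. Its best region, chr2:172504090-172509050 on the minus strand, spanned 4961 nt with the same bounds in both WT lists, at the 94.8 and 94.7 percentile. Its partner was lost too, with 0 and 0 PDK1 peaks in KD cells against 10 and 12 in WT cells. Of the PDK1-AS1 peaks in WT cells, 1 and 2 were overlapped on the opposite strand.

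TTC21B-AS1 was also lost along with its partner TTC21B, which encodes a protein of intraflagellar transport in cilia. The antisense RNA had 0 and 0 peaks in KD cells and 2 and 1 in WT cells, each overlapped on the opposite strand, and the partner had 0 and 0 peaks in KD cells and 8 and 10 in WT cells. EOGT-DT, divergent from the O-GlcNAc transferase gene EOGT, was the remaining lost member with a lost partner. It had 0 and 0 peaks in KD cells and 4 and 1 in WT cells, and EOGT had 0 and 0 in KD cells and 2 and 4 in WT cells. Of the EOGT-DT peaks in WT cells, 3 and 1 were overlapped on the opposite strand.

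XPC-AS1 lies against XPC, a sensor of DNA damage, and B4GALT4-AS1 against a galactosyltransferase gene, and both partners were kept. VLDLR-AS1 lies against the lipoprotein receptor gene VLDLR, which had 0 and 7 peaks in KD cells and 14 and 11 in WT cells, and LMO7-AS1 against LMO7, with 4 and 0 peaks in KD cells and 4 and 7 in WT cells. CCNO-DT is divergent from the cyclin gene CCNO, which had no peak in any list. B4GALT4-AS1, LMO7-AS1 and CCNO-DT had 1 and 1 peaks in WT cells, all overlapped on the opposite strand. XPC-AS1 and VLDLR-AS1 each had 2 and 1 in WT cells, of which 1 and 1 were overlapped.

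LINC00678 and LINC00458 are transcribed in human pluripotent cells, and both were lost with no opposite-strand peak over them. LINC00678 had 0 and 0 peaks in KD cells and 2 and 3 in WT cells, at the 92.9 and 93.2 percentile for the best. LINC00458 had 0 and 0 in KD cells and 9 and 3 in WT cells, at the 90.5 and 86.2 percentile, the most WT peaks among the 10 leading lost members. At the place of LINC00458 the KD lists had 25 and 34 unlisted numbers, and at that of LINC00678 they had 4 and 3. The place of GTF3C2-AS1, whose identifier is close to that of LINC00458, also had 25 and 34. Such numbers can be shared by neighbours and are not counts for 1 gene.

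Among gained members, HDAC2-AS2 led, with 1 and 2 peaks in KD cells and 0 and 0 in WT cells. It lies against HDAC2, a histone deacetylase gene that was kept with 7 and 7 peaks in KD cells and 9 and 10 in WT cells. The peak common to the KD lists spanned 31314 nt at chr6:114406667-114437980 on the plus strand, at the 99.5 and 99.9 percentile, so most of the span may be intron. UBE2Q1-AS1, against a ubiquitin-conjugating enzyme gene, had 1 and 1 peaks in KD cells and 0 and 0 in WT cells. Its 75-nt peak at chr1:154554711-154554785 on the plus strand stood at the 99.1 percentile in replicate 1 and at the top of the list in replicate 2. The score in replicate 2 was infinite, and in that list alone an opposite-strand peak overlapped the peak. The partner UBE2Q1 had 0 and 5 peaks in KD cells and 0 and 0 in WT cells. FARSA-AS1, whose start sequence is printed above, had its 1 and 1 peaks in KD cells at the 93.6 and 99.1 percentile and 0 and 0 in WT cells. Its partner FARSA, a phenylalanyl-tRNA synthetase subunit gene, had 4 and 5 peaks in KD cells and 3 and 0 in WT cells.

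LINC01138 had 3 and 2 peaks in KD cells and 0 and 0 in WT cells. Its best peak, at the 99.0 and 95.8 percentile, covered 75 of the 76 nt of the microRNA hairpin MIR5087 (chr1:148334479-148334554, minus strand), shown here in RNA letters from RefSeq with the covered bases in capitals because the peak and the hairpin share a boundary.
MIR5087: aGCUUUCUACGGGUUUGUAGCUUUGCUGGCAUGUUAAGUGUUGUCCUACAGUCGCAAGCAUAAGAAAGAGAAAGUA
The merged region also held a peak of RNVU1-21, a variant U1 small nuclear RNA gene, so the reads behind it may not all come from LINC01138. Variant U1 genes exist in near-identical copies, between which reads could be split.

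The other leading gained members had 1 or 2 peaks in each KD list, all or nearly all of them under an opposite-strand peak. GNAO1-AS1, SRI-AS1, NFATC2IP-AS1, L3MBTL2-AS1 and EZR-AS1 had 1 and 1 peaks in KD cells and 0 and 0 in WT cells, every one overlapped on the other strand. DLGAP4-AS1 had 2 and 2 in KD cells, of which 1 and 2 were overlapped. The partners SRI (a calcium-binding protein gene), NFATC2IP, EZR (ezrin, a linker of membrane and actin) and DLGAP4 were kept.

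In 4 pairs the partner was gained too, and 3 of them are described here. L3MBTL2, a Polycomb-family gene, had 5 and 3 peaks in KD cells and 0 and 0 in WT cells. MYCL, a MYC-family transcription factor gene, had 2 and 3 in KD cells and 0 and 0 in WT cells, beside MYCL-AS1 with 2 and 2 in KD cells and 0 and 0 in WT cells. The best MYCL-AS1 peaks stood low, at the 27.9 and 19.6 percentile, and all 2 and 2 lay under an opposite-strand peak. TIRAP, a Toll-like receptor adaptor gene, had 4 and 4 in KD cells and 0 and 0 in WT cells, and TIRAP-AS1 had 4 and 3 in KD cells and 0 and 0 in WT cells, 3 and 3 of them overlapped on the opposite strand.

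**Figure D4:**
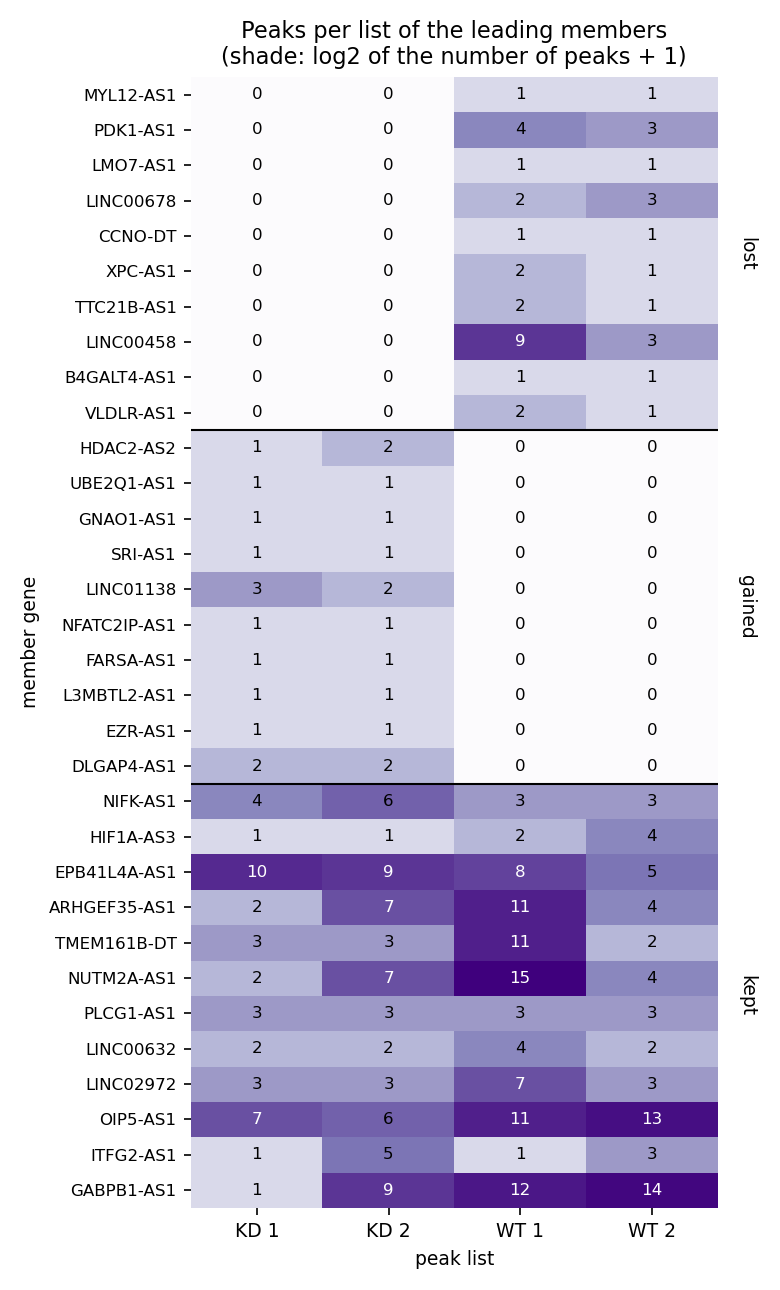
Number of peaks of the leading lost (top), gained (middle) and kept (bottom) members in each list, KD columns left of WT columns; the shade is log2 of the number plus 1. Most lost and gained members rest on 1 to 4 peaks per list, and kept members such as OIP5-AS1 and GABPB1-AS1 reach 13 and 14.

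Across all 334 members named for a partner, the partner had a peak in at least 1 list in 283 cases, or 84.7%, and in none in 50. The remaining name, MYL12, is no gene in the files or RefSeq. In the list where the member had a peak, the partner also had a peak for 89 of 133 and 132 of 176 members in KD cells (66.9 and 75.0%) and for 84 of 125 and 114 of 149 in WT cells (67.2 and 76.5%; exact permutation p = 0.667). For scale, 32.2 and 36.5% of RefSeq protein-coding symbols had a peak in KD cells and 32.4 and 34.2% in WT cells. That base holds all 20056 such symbols, whether transcribed in H1 cells or not. Partners were counted only where the RNA beside them had a peak, so the shares are not like for like. The gap was not tested. The partner had more peaks than the member in 64 and 96 cases in KD cells and 65 and 86 in WT cells.

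Lost, gained and kept partners were counted beside their members, with no test against all genes. Over all genes, the lost call took 12.8% of those in both WT lists. The gained call took 17.1% of those in both KD lists, and the kept call 32.3% of those in any list. The partner counts have a wider base, since they include partners without peaks. Of 21 lost members with a partner name, the partner was lost for 3, gained for 0, kept for 9, in another state for 7 and without peaks for 2. Of 32 gained members it was gained for 4, lost for 1, kept for 17 and in another state for 10. Of 29 kept members it was kept for 16, lost for 1, gained for 1, in another state for 4 and without peaks for 7. The opposite pair was WARS2-AS1 and WARS2, a mitochondrial tryptophanyl-tRNA synthetase gene. WARS2-AS1 had 2 and 2 peaks in KD cells and 0 and 0 in WT cells, none overlapped on the opposite strand, and WARS2 had 0 and 0 in KD cells and 2 and 3 in WT cells. The best WARS2-AS1 peaks stood at the 47.3 and 63.9 percentile of the KD lists.

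Kept members included the richest in peaks. OIP5-AS1, known for binding the microRNA miR-7, had 7 and 6 peaks in KD cells and 11 and 13 in WT cells, and the genotypes did not overlap. None of its peaks was overlapped on the opposite strand, and OIP5 had no peak in any list. A kept region of 22182 nt at chr15:41286422-41308603 on the plus strand held 4 and 4 of its peaks in KD cells and all 11 and 13 in WT cells. GABPB1-AS1 had 1 and 9 peaks in KD cells and 12 and 14 in WT cells, so KD replicate 1 stood low. NUTM2A-AS1 had 2 and 7 in KD cells and 15 and 4 in WT cells, with overlapping genotypes.

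EPB41L4A-AS1, a host gene of small nucleolar RNAs, had 10 and 9 peaks in KD cells and 8 and 5 in WT cells, both KD lists above both WT lists. It had 3 kept regions, of which chr5:112161476-112161650 on the plus strand overlapped SNORA13. NIFK-AS1 had 4 and 6 peaks in KD cells and 3 and 3 in WT cells, with 3 kept regions. LINC00632, the precursor RNA of the circular RNA of the CDR1 locus, had 2 and 2 peaks in KD cells and 4 and 2 in WT cells. Its start sequence is among those above.

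HIF1A-AS3 was kept as a gene and lost at a region. It lies against HIF1A, the hypoxia factor gene, and had 1 and 1 peaks in KD cells and 2 and 4 in WT cells. A 125-nt region at chr14:61720371-61720495 on the minus strand held a peak in all lists, while chr14:61745677-61750894 had peaks in the WT lists alone, at the 95.5 and 99.2 percentile. Every HIF1A-AS3 peak was overlapped on the opposite strand, and HIF1A had 5 and 5 peaks in KD cells and 14 and 9 in WT cells.

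Of the other leading kept members, ARHGEF35-AS1 had 2 and 7 peaks in KD cells and 11 and 4 in WT cells, and TMEM161B-DT had 3 and 3 in KD cells and 11 and 2 in WT cells. PLCG1-AS1 had 3 and 3 in KD cells and 3 and 3 in WT cells, and LINC02972 had 3 and 3 in KD cells and 7 and 3 in WT cells. ITFG2-AS1 had 1 and 5 in KD cells and 1 and 3 in WT cells. The genotypes overlapped or met in each of these. TTN-AS1, antisense to the titin gene TTN, was not kept but was among the 5 members with the most peaks, with 7 and 0 in KD cells and 17 and 8 in WT cells. Most of them, 5 and 0 in KD cells and 15 and 4 in WT cells, lay under an opposite-strand peak, and TTN had 14 and 5 peaks in KD cells and 48 and 28 in WT cells.

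At the level of positions, same-strand peaks that shared 1 bp or more were joined into regions. Of 113 member regions in both WT lists 62 were lost, or 54.9%, against 52.2% of all regions. Of 149 in both KD lists 89 were gained, or 59.7%, against 48.1%. Of 1478 member regions 26 were kept, or 1.76%, against 3.4%. The lost share thus lay near the background at regions, where it had been above it at genes. Lost member regions had a median span of 175 nt, gained ones 222 nt and kept ones 425 nt. The bounds were the same in every list that held the region for 16 lost, 33 gained and 0 kept regions. A kept region joins peaks of every list, and a lost or gained one joins peaks of WT or KD lists alone. Longer spans and fewer equal bounds in kept regions can therefore follow from the joining itself. Spans of other genes' regions are not given here, so these values cannot be read as a trait of kept sites. Of the 35 kept members 18 had a kept region (51.4%), as did 55.4% of 3518 other kept genes.

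A list of 20 RNAs with these name forms that are known from stem cells or development was read separately, and 9 of them had a peak. LINC00678 and LINC00458 were lost, and OIP5-AS1 and LINC00665 were kept. LINC00467 was gained, with 4 and 4 peaks in KD cells and 0 and 0 in WT cells. The lost call thus took 2 of 5 that could be called so, against 12.8% of all genes. The gained call took 1 of 4, against 17.1%, and the kept call 2 of 9, against 32.3%. With so few RNAs these shares say nothing about the list as a whole. LINC00665 had 6 and 8 peaks in KD cells and 8 and 5 in WT cells. FOXD3-AS1, which lies beside the transcription factor gene FOXD3, had 4 and 4 in KD cells and 0 and 4 in WT cells, with a gained region at chr1:63321353-63321477 on the minus strand. LINC01194 had 0 and 2 in KD cells and 5 and 4 in WT cells. SOX2-OT, whose transcription unit spans the pluripotency gene SOX2, had 0 and 0 in KD cells and 0 and 2 in WT cells, while SOX2 had 5 and 8 in KD cells and 6 and 4 in WT cells. LINC-PINT, a p53-induced RNA, had 0 and 1 in KD cells and 0 and 0 in WT cells.

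Well-known long noncoding RNAs with other names gave different counts. From a list of 56 such as NEAT1, the SNHG genes and GAS5, 38 had a peak in at least 1 list, under 39 identifiers because SNHG14 has 2, with 189 and 210 peaks in KD cells and 339 and 299 in WT cells, whereas the member peak counts of the genotypes overlapped. SNHG14 alone held 45 and 59 of these in KD cells and 125 and 115 in WT cells, and the others 144 and 151 in KD cells and 214 and 184 in WT cells. Of them 1 of 26 was lost, GAS5, with 0 and 0 peaks in KD cells and 13 and 11 in WT cells. CRNDE and SNHG30 were the 2 of 27 gained, each with 2 and 2 peaks in KD cells and 0 and 0 in WT cells. Kept calls took 20 of the 39 identifiers, or 51.3%, with SNHG14 counted under both of its own, against 8.77% of members. The difference between the lists was not tested.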

How the data were processed

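The deposited lists, 1 per immunoprecipitation library, hold a row per peak with its position and strand, a running number, a score and the Ensembl identifier and symbol of its gene. Build hg38 and the tools bedtools 2.30.0, fastp 0.21.1, HISAT2 2.2.1 and SAMtools 1.12 are those of the submitters' processing notes. The sources used here do not give the peak caller, its control or its threshold. The score is the authors' own value per peak and was used as a percentile within its list, except where a score of 20 is named. The lists hold no read counts, so read depth is unknown. Starts are given from 1. Many short member regions span a multiple of 25 nt, and whether bounds were set in such steps is not stated. Equal bounds and width differences of 25 nt should be read with that limit. Of 139225 peaks whose symbol RefSeq holds on the same chromosome, 98.2% overlapped that gene's RefSeq span.

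Members, partners, lost, gained and kept genes and regions were found with Python 3.11.15, pandas 2.3.3 and numpy 2.4.6, and the counting was tested on simulated lists. The members and gene lists were chosen with earlier results of these data known. Values per list were compared by two-sided exact permutation over the 6 arrangements of 2 against 2 libraries, and members with other peaks by exact sign flips over 4 libraries. Nothing in the labels says that replicates were separate cultures, so p-values reflect the spread between these libraries alone, which may be technical. Named genes were up to 10 lost, 10 gained and 12 kept members, ordered by the lowest percentile of the best peak over the lists that hold it, the 5 with the most peaks, the stem-cell list, partners, and pairs that changed in opposite directions. Pairs that changed together, region examples and printed sequences were added after their values were seen. Alternatives were the stronger 50% of each list, peaks of at most 1000 nt, overlap of at least 50%, a literal reading of the names, leaving out each library, a replicate block, a score of at least 20 and leaving out opposite-strand overlaps, the last 2 chosen after seeing the data. A gained pair is not reported here by name.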

Additional observations from a re-analysis of the deposited data

How the results depend on the processing

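The lists limit what can be said: with 2 libraries per genotype no value per list can reach a p of 0.05, depth is unknown, and the score's meaning is not stated. Differences below are KD minus WT unless members are set against other peaks.

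The literal reading of the names changed no result beyond its limits. In the stronger 50% of each list, the difference in member peaks was 1.5, in members with a partner peak 5.99 percentage points, in opposite-strand overlap 0.109 points, and members minus others in median percentile was 3.23, all turned in sign (main values -7, -0.896, -3.18 and -0.0437). The counts there were 22 kept genes, 31 lost, 50 gained and 12 kept regions. With peaks of at most 1000 nt the difference in median width was 0 nt and members minus others was 1.47 in percentile, turned in sign, and -6.25 nt in median width. Overlap of at least 50% left 7 kept regions. With a score of at least 20 the differences were 14.5 member peaks, 12.5 nt of median width, 14.6 points with a partner peak and 1.93 points of opposite-strand overlap, all turned in sign, with 15 lost and 9 kept genes and 14 lost, 34 gained and 5 kept regions. Without member peaks under an opposite-strand peak the difference in peaks was 10 and members minus others in percentile -6.96, with 16 lost, 21 gained and 17 kept genes and 20 lost, 44 gained and 12 kept regions. Kept genes can only fall in number when peaks are removed, while lost and gained genes can fall or rise. The cause of the changes in sign and in these counts was not tested.

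Leaving out each library in turn gave 35 to 87 lost, 47 to 112 gained and 42 to 51 kept genes, and 75 to 408 lost, 105 to 455 gained and 32 to 44 kept regions, since fewer lists must then agree. The difference ran from -101 to 87 member peaks, -4.5 to 43.5 member genes, 0.123 to 0.296 percentage points of the list, -0.743 to -0.0645 peaks per gene, -0.961 to 3.88 in median percentile, -5.55 to 3.76 points with a partner peak and -6.02 to -0.33 points of opposite-strand overlap. Members minus others ran from -1.11 to 0.529 in percentile and -50.0 to -41.7 nt in width, and the KD minus WT width stayed at -25 nt.

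With the replicate block the differences were by construction those of the main comparison (-7 peaks, 0.21 percentage points, 19.5 genes, -0.404 peaks per gene, 1.46 in percentile, -25 nt, -0.896 and -3.18 points), and 2 pairs allow no exact p under 0.5. Lists of equal number shared 62 and 76 member genes and lists of unequal number 63 and 72, so the numbers gave no sign of pairing.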
